A study of Mus musculus with 6 samples.

Results

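The 10 genes described here encode enzymes and helpers that form protein disulfide bonds in the endoplasmic reticulum (ER), namely the isomerase family genes P4hb, Pdia3, Pdia4, Pdia5, Pdia6, Txndc5 and Txndc11, the retention factor gene Erp44, and the oxidase genes Ero1l and Ero1lb, which RefSeq now names Ero1a and Ero1b. They were taken by symbol from a count table of 23284 genes, and 10 of 10 were found and passed the filter on low counts. The data were RNA-seq libraries of whole liver from C57BL/6 mice aged 8 weeks, 3 treated with vehicle and 3 with FGF19 at 1 mg/kg, 1 library per mouse. All 6 mice were fasted overnight, and the fast went on through the 6 h of treatment, so neither group was fed. FGF19 is the human counterpart of the mouse hormone FGF15, a signal from gut to liver, and was given as a foreign protein. The study's methods describe its mice as male.

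In the ER, protein disulfide isomerases pass disulfide bonds to newly made chains and rearrange wrong ones. The oxidases of the ERO1 family recharge the isomerases with oxygen as the final acceptor, which yields hydrogen peroxide. Hepatocytes secrete most plasma proteins, many of them rich in disulfides, and many ER folding genes are known targets of the unfolded protein response (UPR), in which the factors XBP1 and ATF6 act on promoter elements such as the ER stress response element (ERSE).

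After FGF19 treatment, 8 of the 10 genes were higher and 0 were lower when edgeR's quasi-likelihood p, adjusted after Benjamini and Hochberg, had to be under 0.05. Among all 12559 genes tested, 4.56% were called higher and 2.84% lower at this threshold. The 8 genes also passed p under 0.01, the threshold of the study, where 6.20% of all genes were called higher. The fitted log2 fold changes of the 10 genes lay between 0.33 and 1.41 with a median of 0.54, and the median over all genes tested was 0.00. The largest were those of Pdia4 (1.41), Pdia6 (1.22), Ero1lb (1.13) and Pdia3 (0.93), and the other 6 lay between 0.33 and 0.55. Pdia5 and Ero1l were not called. In the same 8 genes every FGF19 library lay above every vehicle library, where 14.5% of all genes tested showed this. Whole-liver RNA cannot tell more transcript per cell from more cells that carry it.

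Libraries held between 18994654 and 22920056 counts. The 10 genes together took between 0.235% and 0.266% of all counts with vehicle and between 0.371% and 0.446% with FGF19. Levels are given as RPKM, that is, counts scaled for library size by edgeR's TMM factors and for exon length, so that genes can be compared. The hepatocyte marker Alb, a check of the labelled tissue, was between 63497 and 70411 CPM in every library.

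**Figure D1:**
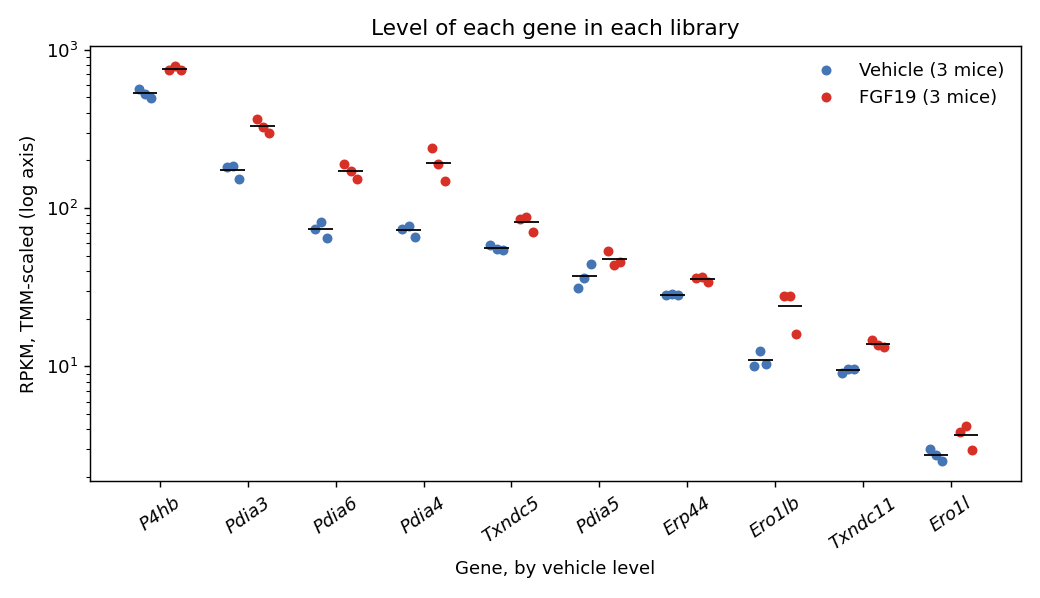
Level of each gene in each library in RPKM on a log axis, with 3 vehicle (blue) and 3 FGF19 (red) libraries per gene and a bar at each group's mean. The groups are apart for 8 genes and overlap for Pdia5 and Ero1l.

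The sequences before the start of transcription are shown for the 4 genes with the largest fold changes, which were picked by their change, to show where an ERSE or a close match to it stood. Promoters of 10 of 10 genes, 14 windows in all, were matched in RefSeq on build GRCm38.p6. The ERSE was searched as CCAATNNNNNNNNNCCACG on both strands of the windows from 250 bases before to 50 bases after each start. It was found in 2 of the 14 windows, those of Pdia6 and Ero1lb, and in 0.119% of all 32851 promoter windows. A looser search, chosen after the exact matches had been seen, allowed 1 of the 10 fixed letters to differ. It added Pdia4, Pdia3 and Erp44, so that 6 of the 14 windows matched, and 1.5% of all promoter windows did. By gene, 5 of the 10 matched, against 1.72% of all 27025 genes. Erp44, the gene with the smallest change of the 10, thus held a loose match too. It was 1 site, counted in the overlapping windows of both its starts. A match therefore did not go with the size of the change in every gene. In the sequences that follow, 250 bases run 5′ to 3′ on the strand of the gene up to the base before its start, with the fixed letters of the element in capitals. For Ero1lb and Pdia4 the element reads on the opposite strand. They lie on GRCm38.p6 at chr12:17266339-17266588 (plus strand) for Pdia6, chr13:12565633-12565882 (plus strand) for Ero1lb, chr6:47813513-47813762 (minus strand) for Pdia4 and chr2:121413652-121413901 (plus strand) for Pdia3.
Pdia6: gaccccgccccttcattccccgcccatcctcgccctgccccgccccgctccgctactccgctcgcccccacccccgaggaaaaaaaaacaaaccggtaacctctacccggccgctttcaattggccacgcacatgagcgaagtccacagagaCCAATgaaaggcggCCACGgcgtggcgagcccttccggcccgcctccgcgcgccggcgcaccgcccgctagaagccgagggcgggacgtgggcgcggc
Ero1lb: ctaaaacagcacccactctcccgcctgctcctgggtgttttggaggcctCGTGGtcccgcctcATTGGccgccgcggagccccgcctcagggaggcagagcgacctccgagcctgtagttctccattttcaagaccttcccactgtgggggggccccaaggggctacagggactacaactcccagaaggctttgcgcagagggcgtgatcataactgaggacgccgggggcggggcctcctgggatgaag
Pdia4: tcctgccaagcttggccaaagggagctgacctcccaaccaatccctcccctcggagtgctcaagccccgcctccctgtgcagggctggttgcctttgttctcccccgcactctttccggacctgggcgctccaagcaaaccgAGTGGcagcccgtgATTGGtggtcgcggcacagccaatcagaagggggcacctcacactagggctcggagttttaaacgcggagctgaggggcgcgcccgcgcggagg
Pdia3: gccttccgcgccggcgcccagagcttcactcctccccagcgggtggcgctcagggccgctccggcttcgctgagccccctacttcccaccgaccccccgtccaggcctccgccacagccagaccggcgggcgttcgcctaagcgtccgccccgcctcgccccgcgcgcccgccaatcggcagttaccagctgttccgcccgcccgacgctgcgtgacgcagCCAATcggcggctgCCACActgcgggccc

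The element began 98 bases before the start in Pdia6, 201 in Ero1lb, 108 in Pdia4 and 29 in Pdia3. A second element, the UPR element TGACGTGG, was found in Txndc5 (at 1 of its 3 starts) and Txndc11 (at 1 of 2), thus in 2 of the 14 windows, and in 0.676% of all promoter windows. The stretches below hold it in capitals, on the strand of the gene, at chr13:38528025-38528072 (minus strand) for Txndc5 and chr16:11134607-11134654 (minus strand) for Txndc11 on GRCm38.p6.
Txndc5: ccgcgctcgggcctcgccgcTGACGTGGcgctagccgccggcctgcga
Txndc11: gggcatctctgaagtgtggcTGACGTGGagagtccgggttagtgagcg

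ERSE-II, searched as ATTGG and CCACG with 1 base between them on both strands, was in 0 of the 14 windows and in 0.0365% of all promoter windows. In the windows of P4hb, Pdia5 and Ero1l none of the 3 elements, nor the looser ERSE, was found. A match or its absence describes letters only, and no binding was measured here.

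P4hb encodes protein disulfide isomerase itself, which also serves as a subunit of prolyl 4-hydroxylase and of the microsomal triglyceride transfer protein. It lies on chromosome 11 of mm9 from 120421618 to 120434250. Its level was 568, 525 and 498 RPKM in vehicle libraries 1, 2 and 3 and 744, 793 and 745 RPKM in FGF19 libraries 1, 2 and 3. It was by far the most abundant of the 10 in both groups, and the groups did not overlap. The means were 531 ± 35.4 and 761 ± 28.0 RPKM (SD, n = 3 each), a 1.43-fold rise (log2 fold change 0.52, standard error 0.0923, adjusted p = 0.0104 from edgeR). Without vehicle replicate 3 or FGF19 replicate 2 the adjusted p was 0.0714 or 0.0530.

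Pdia3, the isomerase that works on glycoproteins together with calnexin and calreticulin, lies on chromosome 2 of mm9 from 121239638 to 121264422. It was at 181, 185 and 153 RPKM with vehicle and at 365, 326 and 298 RPKM with FGF19. All 3 treated mice were well above the highest vehicle mouse. The rise was 1.90-fold (log2 fold change 0.93, standard error 0.112, adjusted p = 0.00154 from edgeR).

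Pdia4, an isomerase with more catalytic domains than P4hb, lies on chromosome 6 of mm9 from 47746140 to 47763511. Its levels of 74.2, 77.3 and 65.9 RPKM with vehicle stood against 238, 191 and 148 RPKM with FGF19. The treated mice differed among themselves more than the vehicle mice did, with coefficients of variation of 23.2% and 8.12%. This was the largest fold change among the 10, at 2.65-fold (log2 fold change 1.41, standard error 0.158, adjusted p = 0.00106 from edgeR). The microRNA gene Mir704 overlaps 14 bases of its exons.

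Pdia6, an isomerase that binds the ER chaperone BiP, the product of Hspa5, lies on chromosome 12 of mm9 from 17273401 to 17291576. It was at 74.3, 81.5 and 65.0 RPKM with vehicle and at 189, 172 and 153 RPKM with FGF19. It rose 2.33-fold (log2 fold change 1.22, standard error 0.115) with the smallest adjusted p of the 10, 0.000384 from edgeR. With vehicle the levels of Pdia4 and Pdia6 could not be told apart within their spread, and the same held with FGF19. Exons of Pdia6 share 50 bases, 2.35% of their length, with Atp6v1c2.

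Pdia5, a further isomerase, lies on chromosome 16 of mm9 from 35397398 to 35490959 and did not pass the test. Its levels were 31.2, 36.0 and 44.4 RPKM with vehicle and 53.6, 44.0 and 45.9 RPKM with FGF19. The highest vehicle mouse, replicate 3, lay above the lowest treated mouse. The log2 fold change was 0.36 with a standard error of 0.135 (adjusted p = 0.144 from edgeR), and the test called it in 0 of 13 alternatives.

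Txndc5 and Txndc11 encode ER proteins with thioredoxin-like domains, and Txndc11 is known to bind the enzymes of the DUOX family. Txndc5 (mm9 chromosome 13, 38592144 to 38620329) was at 58.6, 55.4 and 54.3 RPKM with vehicle and at 84.8, 87.8 and 71.0 RPKM with FGF19. It rose 1.45-fold (log2 fold change 0.53, standard error 0.0993, adjusted p = 0.0130 from edgeR). The call of Txndc5 was lost when vehicle replicate 3 (adjusted p = 0.0757), FGF19 replicate 1 (0.0604) or FGF19 replicate 2 (0.0559) was left out. Txndc11 (mm9 chromosome 16, 11075004 to 11134625) was at 9.09, 9.64 and 9.63 RPKM with vehicle and at 14.6, 13.7 and 13.3 RPKM with FGF19. Its levels varied little within either group, with coefficients of variation of 3.36% and 4.72%. It rose 1.47-fold (log2 fold change 0.55, standard error 0.0863, adjusted p = 0.00545 from edgeR). Snn shares 75 bases, 2.52%, of its exons.

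Erp44, whose product holds ERO1 oxidases and unassembled secretory proteins back in the early secretory pathway, lies on chromosome 4 of mm9 from 48206203 to 48292461. It was at 28.1, 28.8 and 28.1 RPKM with vehicle and at 36.1, 36.8 and 34.3 RPKM with FGF19. The change was the smallest of the 10 and the vehicle mice were nearly equal, with a coefficient of variation of 1.41%. It rose 1.26-fold (log2 fold change 0.33, standard error 0.0782, adjusted p = 0.0336 from edgeR). This call was lost without vehicle replicate 1, 2 or 3 (adjusted p = 0.101, 0.0885 and 0.141), without FGF19 replicate 1 or 2 (0.129 in both), and with the replicate number as a block (0.130).

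The 2 oxidase genes are given next, and the ratio between them follows as the test of a difference in their response. Ero1lb, on chromosome 13 of mm9 from 12658150 to 12701795, encodes the ERO1 enzyme best known from pancreatic islets. Its levels were 10, 12.6 and 10.4 RPKM with vehicle and 27.8, 28.0 and 16.0 RPKM with FGF19. FGF19 replicate 3 was well below the other 2 treated mice and still above every vehicle mouse. The rise was 2.18-fold (log2 fold change 1.13, standard error 0.198, adjusted p = 0.01 from edgeR), and the adjusted p was 0.0587 without vehicle replicate 3. Ero1l, the ubiquitous ERO1 gene, on chromosome 14 of mm9 from 45902762 to 45938247, had the lowest level of the 10, at 2.99, 2.75 and 2.52 RPKM with vehicle and 3.88, 4.21 and 2.95 RPKM with FGF19. These levels rest on between 224 and 405 counts per library. Here FGF19 replicate 3 fell within the vehicle range, and the log2 fold change of 0.42 (standard error 0.149) did not pass the test (adjusted p = 0.126 from edgeR). Without this library the log2 fold change of Ero1l was 0.56, with an adjusted p of 0.0149.

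Within each library the log2 ratio of Ero1lb to Ero1l was 1.74, 2.19 and 2.05 with vehicle and 2.84, 2.73 and 2.44 with FGF19. All 3 treated mice were above all vehicle mice, with a difference of 0.68 between the means (two-sided exact permutation test, p = 0.1, the smallest that 3 against 3 allows). The log2 ratio of both oxidases to the other 8 genes was -6.30, -6.03 and -6.15 with vehicle and -5.77, -5.69 and -6.31 with FGF19. Here the groups overlapped, since FGF19 replicate 3 had the lowest ratio, and the difference of 0.24 was within the spread (two-sided exact permutation test, p = 0.4). These 2 ratios were the only ones tested.

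The summed level of the 10 genes was 995 ± 55.8 RPKM with vehicle and 1660.1 ± 118 RPKM with FGF19 (SD, n = 3 each). P4hb made up 54.8%, 51.8% and 53.5% of this sum with vehicle and 42.4%, 46.7% and 48.8% with FGF19, although its own level rose. Pdia4 went from a mean of 7.28% to 11.5%, Pdia6 from 7.39% to 10.3% and Pdia3 from 17.4% to 19.8%. The treated shares of Pdia3, Pdia4 and Pdia6 lay above all vehicle shares, those of P4hb, Txndc5, Txndc11, Ero1l and Erp44 lay below, and those of Pdia5 and Ero1lb overlapped. Such shares are bound to each other and are given as a description.

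By level with vehicle the order was P4hb, Pdia3, Pdia6, Pdia4, Txndc5, Pdia5, Erp44, Ero1lb, Txndc11 and Ero1l. Among neighbours in this order, Pdia6 and Pdia4 were the pair whose vehicle libraries overlapped. Ero1lb and Txndc11 did not overlap, but their means of 11 ± 1.39 and 9.45 ± 0.318 RPKM (SD, n = 3) lay close together. With FGF19 Pdia4 had a higher mean than Pdia6, 192 ± 44.7 against 171 ± 18.0 RPKM (SD, n = 3), with overlapping libraries.

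Of the treated mice, FGF19 replicate 3 had the lowest level in 8 of the 10 genes, the exceptions being P4hb and Pdia5, and the highest in 0. Of the vehicle mice, replicate 3 was lowest in 7. With each library left out in turn, between 4 genes (without vehicle replicate 3) and 9 genes (without FGF19 replicate 3) were called higher at an adjusted p under 0.05, and 5 without FGF19 replicate 2. The number of higher genes in the whole table moved as well, from 573 with all libraries to 323 or 236 without vehicle replicate 1 or 3, to 295, 276 or 1016 without FGF19 replicate 1, 2 or 3, and to 398 without vehicle replicate 2. At p under 0.01 between 8 and 9 of the 10 genes were called in these fits. Pdia3, Pdia4, Pdia6 and Txndc11 were called in each of the 13 alternatives run.

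**Figure D2:**
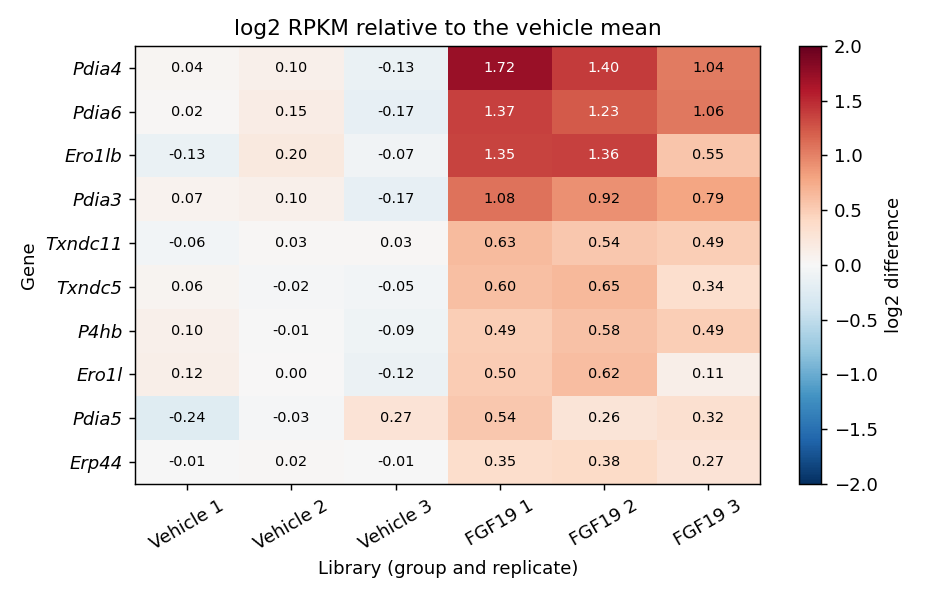
log2 RPKM of each gene in each library relative to the mean of the vehicle libraries (columns are libraries, rows are genes ordered by fold change). Pdia4 in FGF19 replicate 1 stands highest at 1.72, and FGF19 replicate 3 is the palest treated column.

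**Figure D3:**
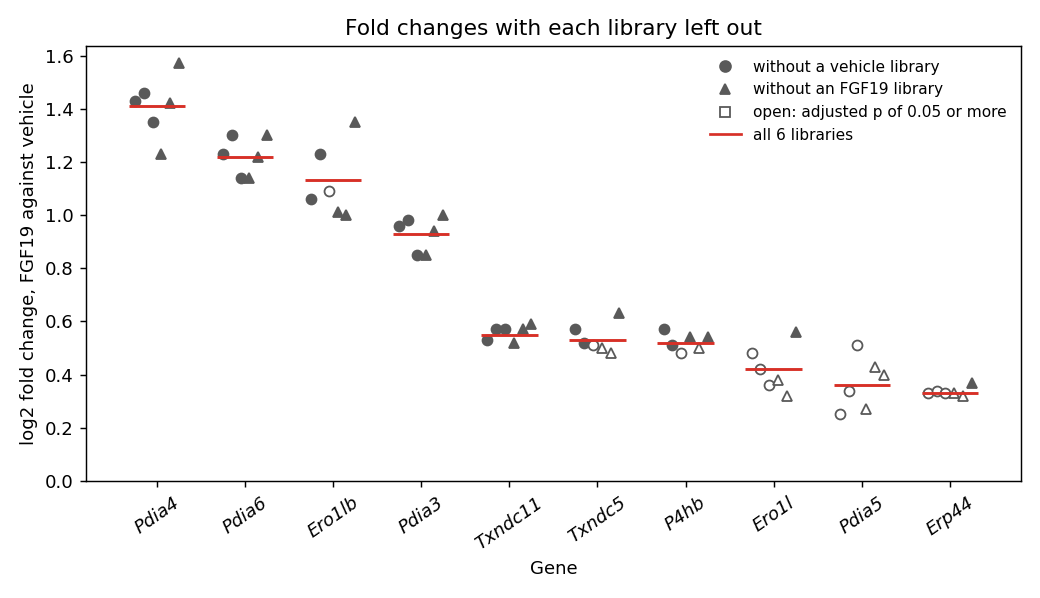
log2 fold change of each gene, FGF19 against vehicle, with all libraries (red bars) and with each library left out (circles without a vehicle library, triangles without an FGF19 library, open where the adjusted p was 0.05 or more). The fold changes stay above 0 throughout, and Ero1lb ranges from 1.00 to 1.35.

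To place the 10 genes among their relatives, 26 other thiol oxidoreductases of the ER were taken, of which 22 passed the filter. Of these, edgeR called 3 higher and 1 lower at the adjusted threshold of 0.05, and 18 were not called. The median log2 fold change of the 22 was 0.03. Without vehicle replicate 1 or 3, or without FGF19 replicate 1 or 2, 2 were called higher. Creld2, a small ER protein with thioredoxin-like activity, rose from 22.1 ± 5.12 to 129 ± 42.1 RPKM (SD, n = 3; log2 fold change 2.55, adjusted p = 0.000521). Dnajc10, a disulfide reductase that takes part in ER degradation, rose by 0.61 on the log2 scale (adjusted p = 0.0148 from edgeR). Qsox1, a sulfhydryl oxidase of the secretory pathway, went from 111 ± 4.01 to 157 ± 16.9 RPKM (SD, n = 3; adjusted p = 0.0160 from edgeR). The gene that fell was Txndc15, with a log2 fold change of -0.41 (adjusted p = 0.0472 from edgeR), and with any library other than FGF19 replicate 3 left out 0 genes of this list were called lower. Prdx4, the peroxidase that uses the hydrogen peroxide made by ERO1, had a log2 fold change of -0.07 with a standard error of 0.0933 (adjusted p = 0.732 from edgeR). Vkorc1, the vitamin K reductase and the most abundant gene of this list with vehicle, was at 171 RPKM with vehicle and 155 RPKM with FGF19 (adjusted p = 0.358 from edgeR). Pdia2, the pancreatic isomerase, had 3 counts or fewer in every library. Agr2 and Agr3 had 0 in all, and a count of 0 is compatible with as many as 3 counts, which is 0.131 to 0.158 CPM at these depths. This limit covers counting error only.

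Of 21 proteins that work together with these enzymes, such as chaperones and glycoprotein folding factors, 19 were tested. In edgeR 10 of them were higher at an adjusted p under 0.05. This count was 8 without vehicle replicate 3, 9 without FGF19 replicate 1 or 2, and 12 without FGF19 replicate 3. In 13 of the 19, Canx among them, every treated library lay above every vehicle library, against 14.5% of all genes tested. In 1, Sumf1, which activates sulfatases, every treated library lay below every vehicle library. Sumf1 was 1 of the 9 not called, with a log2 fold change of -0.27 (adjusted p = 0.0961 from edgeR). The share of all genes that lay below in this way is not given here. The median log2 fold change of the 19 was 0.49. Calr, the calreticulin gene, went from 412 ± 32.9 to 822 ± 29.7 RPKM (SD, n = 3), and Tapbp, which links Pdia3 to the loading of MHC class I, from 28.7 ± 3.08 to 52.6 ± 3.04 RPKM (SD, n = 3). Canx, the calnexin gene, had a log2 fold change of 0.39 and was not called (adjusted p = 0.0905 from edgeR). Hspa5 rose by 1.56 on the log2 scale, Hsp90b1 by 1.32, Hyou1 by 1.75, Dnajb11 by 1.14 and Sdf2l1, a cofactor of BiP, by 2.74, the most in this list. Uggt1, the sensor of misfolded glycoproteins, rose by 0.76, Kdelr2, a receptor that returns ER proteins, by 0.57, and Ppib, a prolyl isomerase, by 0.49. The value of Ppib is uncertain, since 520 bases, 54.2% of its exon length, are shared with Snx22. The adjusted p of these 10 genes lay between 0.000216 and 0.0153 in edgeR. The catalytic partners of P4hb did not pass the test, with log2 fold changes of -0.19 for P4ha1, 0.11 for P4ha2 and -0.13 for Mttp (adjusted p = 0.580, 0.823 and 0.456 from edgeR).

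Thiol oxidoreductases of the cytosol, nucleus and mitochondria gave other values. Of 26 genes tested, 0 were higher and 1, Prdx6, was lower at an adjusted p under 0.05 in edgeR. DESeq2 and limma-voom also called 0 higher at this threshold. Over all genes tested, edgeR called 4.56% higher and 2.84% lower. At p under 0.01 in edgeR, 0 of the 26 were higher and 2 lower. Over all genes, 6.20% were higher and 626 of 12559 lower at p under 0.01. Without FGF19 replicate 3, 1 was called higher. Their median log2 fold change was -0.14, and 18 of 26 were below 0. Of all genes tested, 49.9% had a log2 fold change above 0. Prdx6, a peroxidase, went from 179 ± 16.0 to 139 ± 6.49 RPKM (SD, n = 3; adjusted p = 0.0487 from edgeR). The most abundant genes of this list, the glutathione peroxidase Gpx1 and the peroxiredoxin Prdx1, had log2 fold changes of -0.08 and 0.03 (adjusted p = 0.703 and 0.906 from edgeR). Prdx1 shares 16 bases, 1.13%, of its exons with AV051173.

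Of 16 sensors and factors of the UPR, 15 were tested and 2 were higher, Xbp1 and Atf6b, with log2 fold changes of 0.44 and 0.54 (adjusted p = 0.0155 and 0.0148 from edgeR). Xbp1 was at 97.7, 111 and 107 RPKM with vehicle and at 140.3, 139 and 150.3 RPKM with FGF19, which are levels of its transcript in all splice forms. Creb3l3, a liver-enriched ER-anchored factor and the most abundant of the list, had a log2 fold change of 0.30 (adjusted p = 0.102 from edgeR). Ddit3, a stress factor known to induce Ero1l, was also at 0.30 (adjusted p = 0.231 from edgeR), with 68 bases, 7.81%, of its exons shared with Mars. Atf4 was at 0.21 and Atf6 at 0.28 (adjusted p = 0.251 and 0.215 from edgeR), both with overlapping groups. Of the 15 tested, 12 lay above 0, against 49.9% of all genes tested. In 6 of them every FGF19 library lay above every vehicle library, against 14.5% of all genes. The count of higher genes in this list was 0 without vehicle replicate 1 or 3 and 1 without FGF19 replicate 1 or 2. It was 5 without FGF19 replicate 3 and 0 with the replicate number as a block.

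**Figure D4:**
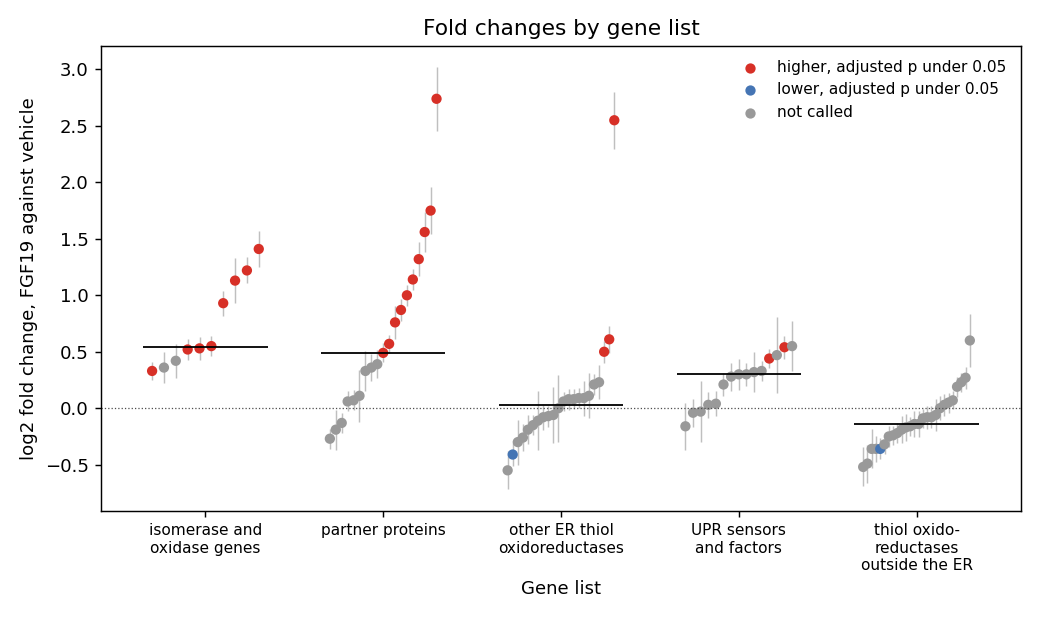
log2 fold changes, FGF19 against vehicle, of the tested genes of 5 lists, with standard errors, coloured by call at an adjusted p under 0.05 and with a bar at each median. The medians are 0.54, 0.49, 0.03, 0.30 and -0.14 from left to right.

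The genes whose level followed the mean standardised level of the 10 genes most closely over the 6 libraries were sought among 7530 other genes with a mean of at least 10 CPM. They were Hsp90b1, an ER chaperone, with a Pearson r of 0.9991, Ap3d1, an adaptor subunit of vesicle transport (0.9990), Tram1, a factor of ER translocation (0.9975), Sec23b, a coat protein of vesicles that leave the ER (0.9964), and Hspa5 (0.9963). Their log2 fold changes were 1.32, 0.23, 0.67, 1.00 and 1.56. These points are libraries of 2 groups, so the group difference itself carries much of each r.

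Markers of other cells were read beside these values. Of the pancreatic acinar genes, Prss1 and Ctrb1 had 0 counts in all libraries, as did Amy2a5, which shares 75% of its exon length with Amy2a2, Amy2a3 and Amy2a4 and so cannot be read here. The 7 markers summed to between 5.67 and 7.15 CPM with vehicle and between 5.57 and 5.77 CPM with FGF19, nearly all of it Cela1. Plasma and B cell markers other than Sdc1 and Xbp1 summed to between 3.14 and 5.90 CPM with vehicle and between 1.45 and 3.31 CPM with FGF19. The 7 macrophage markers summed to between 184 and 232 CPM and between 191 and 225 CPM, and 2 of them were higher, Marco (log2 fold change 2.29, adjusted p = 0.00105 from edgeR) and Cd68 (0.66, adjusted p = 0.00932 from edgeR). The other 5 were not called, and of these Vsig4 had a log2 fold change of -0.54 (adjusted p = 0.0755 from edgeR, every FGF19 library below every vehicle library), Clec4f one of -0.29, Cd5l one of -0.22, Csf1r one of 0.04 and Emr1 one of 0.36 (adjusted p = 0.155 from edgeR, every FGF19 library above every vehicle library). The median of the 7 was 0.04. The neutrophil markers summed to at most 1.74 CPM with vehicle and between 3.49 and 4.68 CPM with FGF19, and S100a9, the 1 marker of this list tested, was higher (log2 fold change 2.16, adjusted p = 0.0292 from edgeR). Of 6 endothelial markers 1 was called, Cdh5, with a log2 fold change of 0.43 (adjusted p = 0.0275 from edgeR), 3 were above 0 and 3 below, and the median was 0.06. Clec4g, not called, had a log2 fold change of -0.38 (adjusted p = 0.0736 from edgeR), with every FGF19 library below every vehicle library. No call was made in edgeR among the hepatocyte, stellate, cholangiocyte and erythroid markers tested. Among them every FGF19 library lay below every vehicle library for the hepatocyte marker Cps1 (log2 fold change -0.35) and the stellate marker Reln (-0.46). The share of all genes tested that lay below in this way is not given here. The median log2 fold change of the cholangiocyte markers was -0.40, and Alas2, the 1 erythroid marker tested, was at -0.51 (adjusted p = 0.0645 from edgeR). The part of these cells in the levels of the 10 genes was not tested.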

How the data were processed

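RNA-seq counts of 6 mouse livers, 3 vehicle and 3 FGF19, were analysed. The deposited values are raw counts of reads per gene, which the authors made with Trimmomatic 0.36, STAR 2.5.3a (per the submitters' processing notes, while the study's text names other versions) and, per the file headers, featureCounts 1.5.2 on exons of mm9, without strand, with mates counted separately and reads that map to several places left out. Genes that share exon positions are therefore uncertain where named. The authors' own table of their comparison, with log2 fold changes, p-values and FDR, was not used. Using edgeR 4.0.16 under R 4.3.3, genes were filtered by filterByExpr (12559 kept), scaled by TMM and compared by the quasi-likelihood test without covariates, with Benjamini-Hochberg adjustment over all genes tested. Standard errors were derived from the F statistic. The procedure was tested on simulated data. Depth was between 18994654 and 22920056 counts, and every member had at least 224 counts in each library. Libraries were checked for identity: pairs within a group had a chi-square of 8.25 to 39.4 for each degree of freedom, so all 6 counted as separate samples. Pearson r and the check of pairing used log2(CPM + 0.5).

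Results were recomputed with each library left out, with limma-voom (limma 3.58.1), with DESeq2 1.42.0, with edgeR's likelihood ratio test, with the replicate number as a block, without the filter or with a minimum of 1 CPM in each library, and without TMM. The members, the gene lists and the tests were chosen with earlier results of these data known. Named genes were the 10 members and, of each other list, the called genes and the 2 most abundant genes. The 5 genes most alike in pattern were named too. Sumf1, Canx, the partners of P4hb, Prdx4, Pdia2, Agr2, Agr3, Ddit3, Atf4, Atf6 and the named markers were added for their roles. Promoters came from RefSeq (GRCm38.p6), whose coordinates were not mixed with mm9. Protein sequences were not used here.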

Additional observations from a re-analysis of the deposited data

How the results depend on the processing

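The log2 fold changes of the 10 genes were above 0 in each of the 13 alternatives, and their median was between 0.53 and 0.61. The count of the 10 called higher at an adjusted p under 0.05 was 8 with DESeq2, no TMM scaling, either other filter, the likelihood ratio test and limma-voom, and ranged from 4 to 9 with each library left out. In the same leave-one-out fits, higher genes over the whole table ranged from 236 to 1016 (573 with all libraries) and lower genes from 91 to 927 (357), and lower genes at p under 0.01 from 324 to 1041 (626). At an adjusted p under 0.05 the likelihood ratio test called 579 genes lower, against 357. For the other ER thiol oxidoreductases, the count of lower genes was 1, and 0 with at least 1 CPM in every library, 2 with the likelihood ratio test, and 0 to 1 with a library left out. Thiol oxidoreductases outside the ER called higher ranged from 0 to 1 and UPR genes from 0 to 5 with a library left out. The cause of these shifts was not tested. The differences in the log2 ratios ranged from 0.55 to 0.79 for Ero1lb to Ero1l and from 0.12 to 0.43 for oxidases to isomerases with a library left out.

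Replicate numbers are shared by the groups, but the deviations of same-numbered libraries from their group means correlated with r of -0.05, -0.23 and -0.21, and no library correlated best with its own number, so the numbers were not taken as pairs. With the replicate block, 7 of the 10 genes were called higher, 370 genes were higher and 164 lower over the whole table, 409 were lower at p under 0.01, 0 other ER thiol oxidoreductases were lower and 0 UPR genes were higher. Each group holds 3 mice, which limits the precision of small changes. Pdia5 and Ero1l, not called, had standard errors of 0.135 and 0.149. Erp44, with a smaller change, was called and had a standard error of 0.0782.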
